A study of Arabidopsis thaliana with 14 samples.

Results

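The promoter of FLC upstream of the -1 nucleosome was examined by MNase-seq. Its members were all fragments whose midpoint lay at positions -221 to -1000 from the FLC transcription start site (TSS), which gave 51185 of the 1039765 fragment records at FLC and 14697 of the 241708 distinct fragments. A fragment here is a stretch of DNA with its own start and end that was protected from micrococcal nuclease (MNase), and the share of a region is the percentage of a library's FLC fragments with midpoints in it. Most of the promoter was thinly covered, and a stretch from -634 to -933 held almost no fragments. In that stretch the share in vrn1-4 FRI was 0.172-fold of that in WT FRI in warm and 0.333-fold after cold (0.201-fold without vrn1-4 FRI 1W cold replicate 3), and its difference between cold and warm lay within the spread between libraries in both genotypes. Between the genotypes, 4 promoter bins of 100 bp were called as lower in vrn1-4 FRI at each temperature. Corrections for GC content left 1 or 2 of these calls in warm and 0 or 1 after cold. The bin from -834 to -933 kept its call in warm under each correction. The bin from -534 to -633 was called as higher under each of them at both temperatures. The part that goes with base composition could not be told apart from the part that goes with genotype.

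The study asked how cold and VRN1 alter nucleosomes at FLC. Chromatin of whole Arabidopsis seedlings was digested with MNase, and mono- and sub-nucleosomal DNA was captured with baits and sequenced. WT FRI was Col-0 with an active FRIGIDA (FRI) allele introgressed from San Feliu-2, and vrn1-4 FRI carried the same active allele together with the vrn1-4 mutation, so every library came from plants with active FRI. The warm groups were 10-day-old seedlings grown at 22 °C with 16 h light and 8 h dark, with 3 libraries for each genotype, and the 1W cold groups had in addition 1 week at 5 °C, with 4 libraries for each genotype. Each replicate came from 1.5 g of seedlings, so the values average over all cell types, and fewer cells with a protected fragment cannot be told apart from weaker protection in every cell. The replicates were biological replicates by their labels and methods, which do not state separate sowings or days, and p-values therefore measure the spread between these samples.

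FLC is a MADS-box repressor of flowering that FRI keeps active before winter, and prolonged cold silences it through Polycomb. VRN1 is a plant-specific DNA-binding protein with B3 domains that is needed for stable silencing after cold. Nucleosomes protect their DNA from MNase, so a run of midpoints marks a nucleosome position, and a stretch with few fragments upstream of a gene is usually read as depleted of nucleosomes. Long runs of A or T bend poorly around histones, and MNase also cuts A/T-rich DNA readily.

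The promoter covered chr5:3179669-3180448 in TAIR10 coordinates, on the far side of the TSS at 3179448, with FLC on the minus strand. No annotated gene overlapped it. FLC (AT5G10140) spans chr5:3173382-3179448, the plus-strand locus AT5G01675 ended at position -152, and the next gene upstream, AT5G10150, begins at 3181938, so the whole span was intergenic. Of the 237 capture baits for FLC, all of which matched the reference exactly, 22 overlapped the promoter. The following sequences are from the RefSeq TAIR10 chromosome 5, on the FLC strand, 5′ to 3′, and capitals mark runs of at least 5 A or 5 T. The depleted stretch is shown because the genotype difference was found there, and fragments 1 and 2 because they were the most frequent fragments at the near and far edge.

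depleted stretch, chr5:3180082-3180381, positions -933 to -634: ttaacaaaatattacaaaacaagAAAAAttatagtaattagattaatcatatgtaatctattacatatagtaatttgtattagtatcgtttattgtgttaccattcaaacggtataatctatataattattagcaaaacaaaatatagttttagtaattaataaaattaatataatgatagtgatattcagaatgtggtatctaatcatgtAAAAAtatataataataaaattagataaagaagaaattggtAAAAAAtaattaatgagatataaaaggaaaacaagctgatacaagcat

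fragment 1, chr5:3179670-3179801, positions -353 to -222: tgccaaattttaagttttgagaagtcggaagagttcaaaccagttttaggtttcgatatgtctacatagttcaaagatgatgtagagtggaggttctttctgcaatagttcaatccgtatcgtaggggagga

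fragment 2, chr5:3180366-3180512, positions -1064 to -918: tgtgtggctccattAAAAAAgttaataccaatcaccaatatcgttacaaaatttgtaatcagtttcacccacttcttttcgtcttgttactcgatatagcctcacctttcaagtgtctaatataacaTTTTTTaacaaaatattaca

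The depleted stretch had a GC content of 18.7%, and 3 runs of at least 5 A or T, the longest of 6. Of 927 windows of 300 bp in the FLC target, only 4 were as low in GC. These windows were taken in steps of 10 bp, so neighbours overlap and they are not separate places. Of the 300-bp tiles of chromosome 5, 0.768% were as low. The promoter as a whole had 26.8% GC, the FLC target 32.9%, and the median tile of chromosome 5 36.3%. Fragment 1 had 38.6% GC and fragment 2 had 30.6%. On either strand the promoter contained no G-box (CACGTG), which 8.21% of 34553 chromosome 5 tiles of the same length held, and no RY motif (TGCATG), which 26.7% held. CCAAT occurred at -685 and TATAAA at -430 and -432, which overlap, and at -661, and 81.5% and 63.7% of the tiles held at least 1 copy of these motifs.

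Over the whole series, libraries held 14166 to 124173 distinct FLC fragments, of which 546 to 6920 lay in the promoter. WT FRI warm replicate 2 was the thinnest. The values are fractions of each library's FLC fragments, and fragment numbers are not stated beside them. The smallest fraction in a library ran from 8.73e-07 in WT FRI 1W cold replicate 1 to 2.09e-05 in WT FRI warm replicate 2. If it stands for a single sequenced fragment, its inverse is the number of FLC fragments, repeats included. No counting interval was computed. Fragments over the rest of FLC had a mean GC content of 35.2 to 36.7% in the WT FRI libraries and 36.7 to 38.4% in the vrn1-4 FRI libraries, with no overlap between the genotypes in warm or in cold.

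The first question was how densely the promoter was covered beside its neighbours. The promoter held 0.325 to 0.482% of FLC fragments per 100 bp over the 14 libraries. The stretch from the TSS to its nearer border, which includes the -1 nucleosome, held 0.792 to 1.92%, and the distal flank beyond -1000 held 0.864 to 1.02%. The promoter was lower than both neighbours in 14 of 14 libraries, at 0.342-fold of the TSS-side stretch and 0.415-fold of the distal flank (geometric means). Sign-flip permutation tests over the 14 libraries gave p = 0.000122 for each, which is the smallest they can give, with adjusted p = 0.000122 over 3 tests. The promoter was defined to leave out the -1 nucleosome, so its lower density beside the TSS-side stretch was partly fixed by that border. The far border left the summit of a peak, at -1009 to -1023 in the group profiles, to the distal flank. That comparison was therefore partly fixed by its border too. The borders did not fall in empty DNA: the 10 bp inside the nearer border held a median of 0.0682% of fragments against 0.0990% in the 10 bp outside it, and at the far border these values were 0.263% and 0.388%.

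Coverage along the promoter was uneven. In the midpoint profile averaged over the 4 groups and smoothed over 41 bp, local maxima stood at -269, -370, -474, -607, -795 and -910. Their heights were 1.28, 0.597, 0.383, 0.577, 0.0558 and 0.0737% per 100 bp. The profile thus fell from the TSS side, kept a separate peak at -607, and dropped in the depleted stretch to a minimum of 0.0109% per 100 bp at -721. Neighbouring maxima were 101, 104, 133, 188 and 115 bp apart, and all but the gap of 188 bp were shorter than the most frequent fragment length of 145 to 146 bp, so fragments of that length at neighbouring maxima overlap. Beyond -933 the profile rose steeply into a peak whose summit, at -1009 to -1023 in the group profiles, lay outside the promoter. The nearer maxima stood at similar places in the separate groups, at -268 to -272 and at -604 to -613. WT FRI 1W cold was the exception in between, with none listed near -370 and its next at -454. Maxima had to be at least 100 bp apart, and -370 lies closer than that to the higher maximum at -272. One at -370 could therefore not be listed in that group, and its absence shows no change of position. Within 40 bp of -370, WT FRI 1W cold held 0.403 ± 0.0206% of fragments and WT FRI warm 0.437 ± 0.0374% (SD).

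**Figure D1:**
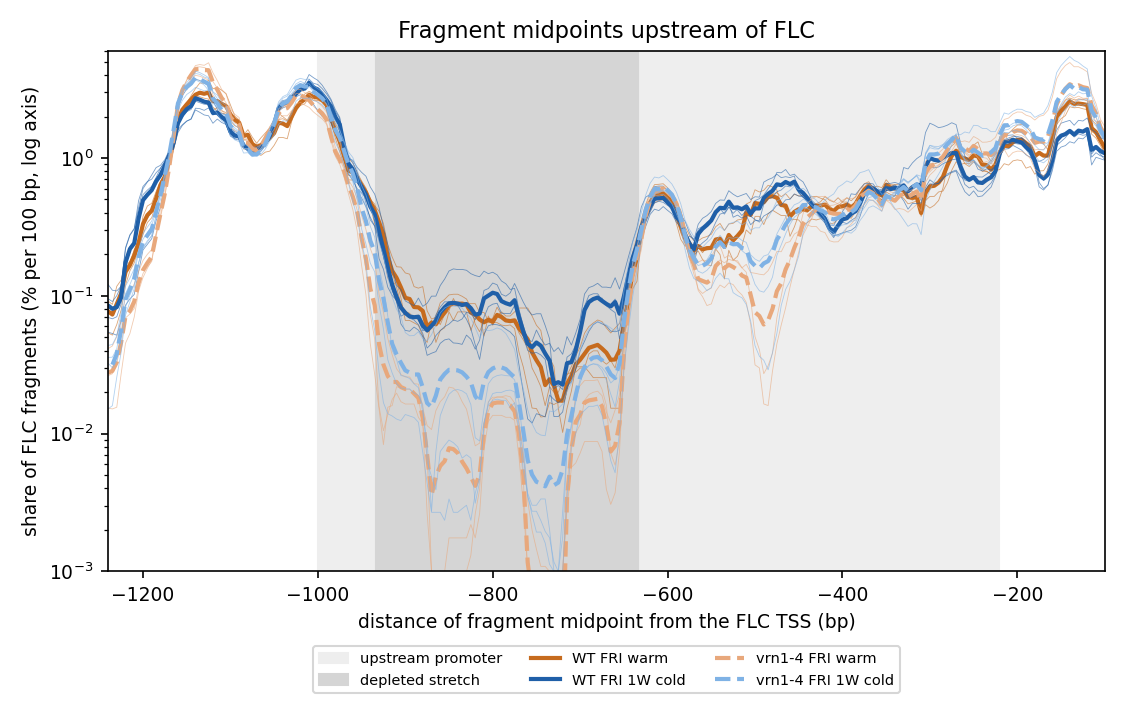
Smoothed midpoint profile upstream of FLC, with distance from the TSS in bp on the x axis and the share of FLC fragments in % per 100 bp on a log y axis. Thick lines are group means (solid WT FRI, dashed vrn1-4 FRI), thin lines single libraries, values under 0.001 lie on or below the axis, and both vrn1-4 FRI lines run below the WT FRI lines across the depleted stretch (dark grey) except at its end nearest the TSS.

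Ends of fragments were spread widely. The most common TSS-side ends, at -181, -918, -222 and -913, each made up 3.47, 2.91, 2.85 and 2.36% of promoter fragments over the 4 groups, and the most common far-side ends, at -353, -385, -1060 and -1064, made up 3.71, 2.97, 2.52 and 2.47%. These ends belong to the edges of the promoter, and none of the 8 lay inside the depleted stretch except those at -918 and -913, the near ends of fragments that reach out beyond -1000. The most frequent single fragments fell into the same sets. Fragment 1, with ends at -222 and -353, made up 0.0316% of FLC fragments on average over the groups and was first in both vrn1-4 FRI groups. Fragment 2, with ends at -918 and -1064, made up 0.0242% and was first in WT FRI 1W cold. Fragment 3 (chr5:3180361-3180508) made up 0.0211% and was first in WT FRI warm, while fragments 4 (chr5:3179669-3179801) and 5 (chr5:3179657-3179801) made up 0.020% and 0.0186% and shared the far end of fragment 1.

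Single fragments varied strongly between libraries. Fragment 1 stood at 0.00490, 0.00836 and 0.0485% in WT FRI warm and at 0.0425, 0.00624, 0.0116 and 0.0227% in WT FRI 1W cold. In vrn1-4 FRI it stood at 0.0330, 0.0350 and 0.0552% in warm and at 0.050, 0.0585, 0.0389 and 0.0281% after cold. The WT FRI libraries differed several-fold within each temperature, and the genotypes overlapped. None of the 20 exact permutation tests on the 5 fragments passed the threshold (lowest p = 0.0571, adjusted p = 0.571). Those between genotypes in warm, 3 libraries against 3, could not reach it.

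The next question was whether the total share of the promoter moved with cold or genotype. The share was 3.04, 3.01 and 3.46% in WT FRI warm (3.17 ± 0.249%, SD, n = 3) and 3.72, 3.76, 3.32 and 3.16% in WT FRI 1W cold (3.49 ± 0.299%, n = 4). In vrn1-4 FRI it was 2.53, 2.60 and 2.63% in warm (2.59 ± 0.0501%, n = 3) and 2.88, 3.11, 3.49 and 2.81% after cold (3.07 ± 0.306%, n = 4). The WT FRI groups overlapped, whereas every vrn1-4 FRI cold library lay above every vrn1-4 FRI warm library, and every vrn1-4 FRI warm library lay below every WT FRI warm library. After cold the genotypes overlapped through vrn1-4 FRI 1W cold replicate 3.

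None of these differences passed the threshold. The cold-minus-warm difference was 0.320 percentage points in WT FRI (1.10-fold, exact permutation p = 0.2, adjusted p = 0.2) and 0.484 in vrn1-4 FRI (1.19-fold, exact permutation p = 0.0571, adjusted p = 0.152). The genotype difference was -0.584 in warm (0.816-fold, exact permutation p = 0.1, the smallest that 3 against 3 can give) and -0.419 after cold (0.880-fold, exact permutation p = 0.114), with adjusted p = 0.152 for both. The change with cold differed between genotypes by 0.164 percentage points (permutation p = 0.689). A share is relative to all FLC fragments of the library, so it moves when any other part of FLC moves.

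**Figure D2:**
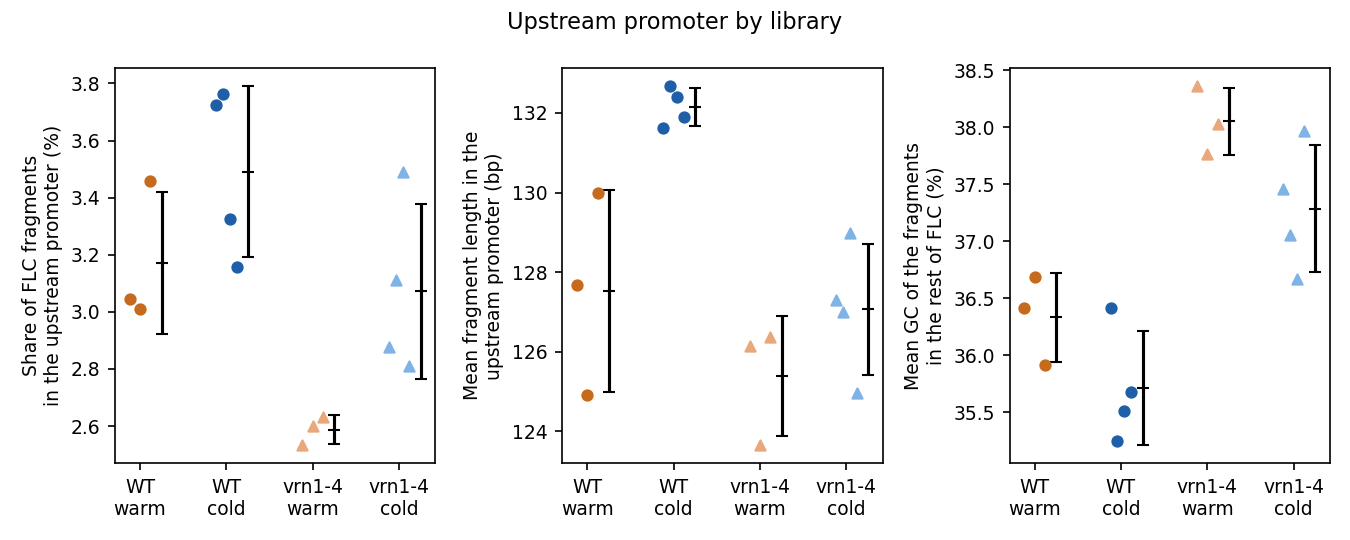
Share of FLC fragments in the promoter (%), mean length of its fragments (bp) and mean GC content of the fragments in the rest of FLC (%), by group. Points are the 14 libraries and the bars beside them mean ± SD; the y axes do not start at 0, the WT FRI cold libraries lie highest in length, and the vrn1-4 FRI libraries lie above the WT FRI libraries of their temperature in GC content.

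Fragment length was compared next. Promoter fragments averaged 127.7, 124.9 and 130.0 bp in WT FRI warm and 131.6, 132.7, 132.4 and 131.9 bp in WT FRI 1W cold. In vrn1-4 FRI they averaged 126.1, 123.6 and 126.4 bp in warm and 127.3, 127.0, 129.0 and 124.97 bp after cold. The WT FRI cold libraries lay above all others, and the remaining groups overlapped each other. The difference was 4.62 bp between cold and warm in WT FRI and -5.09 bp between vrn1-4 FRI and WT FRI after cold, each with exact permutation p = 0.0286, the smallest that these group sizes can give, and adjusted p = 0.0571 over 4 comparisons. The cold-minus-warm difference in vrn1-4 FRI was 1.67 bp (exact permutation p = 0.286), the genotype difference in warm -2.14 bp (exact permutation p = 0.3), and the difference between the changes -2.95 bp (permutation p = 0.301). Fragments shorter than 120 bp made up 34.4, 23.7, 38.8 and 34.8% of promoter fragments in WT FRI warm, WT FRI 1W cold, vrn1-4 FRI warm and vrn1-4 FRI 1W cold.

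The lengths were not particular to the promoter. Over the rest of FLC the group means were 128.3, 132.5, 126.5 and 128.1 bp in the same order. Promoter fragments were shorter than those of the rest of FLC in 14 of 14 libraries, by 0.756 ± 0.397 bp on average (SD; sign-flip permutation p = 0.000122), but when each distinct fragment was counted once the difference was -0.193 bp and did not pass (permutation p = 0.173). Extent of digestion was not recorded per library, and its part in the lengths was not tested.

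The contrast between maxima and minima gave no difference past the threshold. The mean height at the 6 maxima divided by that at the 5 minima was 2.14 ± 0.182 in WT FRI warm, 2.14 ± 0.388 in WT FRI 1W cold, 2.39 ± 0.384 in vrn1-4 FRI warm and 2.54 ± 0.298 in vrn1-4 FRI 1W cold (SD, n = 3 or 4). The exact permutation p-values were 1, 0.571, 0.5 and 0.143 for cold in WT FRI, cold in vrn1-4 FRI, genotype in warm and genotype after cold, and the permutation p for the difference between changes was 0.736. The ratio is dominated by the high maxima on the TSS side.

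Taken maximum by maximum, in windows reaching 40 bp to either side, 0 of 24 differences passed. The genotype tests in warm among them, 3 libraries against 3, could not reach the threshold. The window at -269 was 1.27-fold higher in vrn1-4 FRI in warm and 1.35-fold after cold, the one at -607 was 1.04-fold and 1.09-fold, and the one at -474 was 0.341-fold and 0.510-fold. The -474 window held 0.381, 0.286 and 0.412% of fragments in WT FRI warm and 0.0791, 0.116 and 0.173% in vrn1-4 FRI warm. After cold it held 0.512, 0.513, 0.408 and 0.364% in WT FRI and 0.197, 0.261, 0.380 and 0.0797% in vrn1-4 FRI. The groups did not overlap in warm (exact permutation p = 0.1, the smallest possible) and overlapped after cold through vrn1-4 FRI 1W cold replicate 3 (exact permutation p = 0.0571), with adjusted p = 0.274 for both. The window at -795 was 0.149-fold and 0.254-fold in vrn1-4 FRI and the one at -910 was 0.150-fold and 0.433-fold, with the same p-values as at -474. Without vrn1-4 FRI 1W cold replicate 3 the ratio at -795 after cold was 0.158-fold, and without vrn1-4 FRI warm replicate 3 the ratio at -910 in warm was 0.0774-fold. In warm the ratios farthest from 1 were thus at -474, -795 and -910, and the ratio at -607, next to the depleted stretch, was the nearest to 1. The windows were placed on maxima of the averaged profile, which at -795 and -910 was set mainly by WT FRI. Near -795 the warm group maxima were 0.0740% per 100 bp in WT FRI and 0.0169% in vrn1-4 FRI. Such placement can favour ratios below 1.

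The depleted stretch was taken as a whole after its profile had been seen. It held 0.212, 0.171 and 0.200% of FLC fragments in WT FRI warm (0.194 ± 0.0208%) and 0.0223, 0.0293 and 0.0485% in vrn1-4 FRI warm (0.0333 ± 0.0136%). After cold it held 0.168, 0.325, 0.234 and 0.180% in WT FRI (0.227 ± 0.0714%) and 0.0475, 0.0621, 0.166 and 0.0272% in vrn1-4 FRI (0.0756 ± 0.0617%). Every vrn1-4 FRI library lay below every WT FRI library of its temperature, although the highest vrn1-4 FRI cold library, at 0.166%, was close to the lowest WT FRI cold library, at 0.168%. The share in vrn1-4 FRI was 0.172-fold of WT FRI in warm (exact permutation p = 0.1, the smallest possible) and 0.333-fold after cold (exact permutation p = 0.0286, the smallest possible), with adjusted p = 0.229 over 12 tests for both. Without vrn1-4 FRI 1W cold replicate 3 the ratio after cold was 0.201-fold. The exact permutation p after cold was 0.0571 in 5 of the 8 comparisons that left out a library, those without any 1 of the WT FRI 1W cold libraries or without vrn1-4 FRI 1W cold replicate 4. The 2 remaining stretches were closer: the nearer stretch, -221 to -633, was 0.950-fold and 0.981-fold in vrn1-4 FRI, and the far edge, -934 to -1000, was 0.613-fold and 0.770-fold.

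Cold left the depleted stretch within its spread. The cold-minus-warm ratio was 1.17-fold in WT FRI (exact permutation p = 0.629) and 2.27-fold in vrn1-4 FRI (exact permutation p = 0.314), where replicate 3 after cold was far above the other libraries and the ratio without it was 1.37-fold. The permutation p for the difference between changes was 0.934. The stretch rested on 51 to 906 distinct fragments per library.

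Bins of 100 bp over the whole FLC target were then fitted together with limma on log2(share + 0.0001), which understates changes of low bins, with Benjamini-Hochberg adjustment over all 96 bins. Of these, 8 had their centres in the promoter. They start at -234, so the first bases of the promoter on the TSS side belong to a bin outside, and the last reaches to -1033. The 3 bins of the depleted stretch were the 3 lowest in GC of all 96, at 20.5, 18.5 and 22.0% with 50 bp to either side, and ranked 2 to 4 from the bottom in mean share. Their mean shares were 0.0368, 0.0393 and 0.0590%, beside a median of 0.808% over all bins. The bin from -934 to -1033, next to them, held 1.83% and ranked 84.

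Between the genotypes in warm, 4 of the 8 promoter bins were called, all lower in vrn1-4 FRI, where 36.5% of all bins were called in either direction and 28.1% as lower. The median log2 change was -0.60 over the promoter bins and -0.16 over all bins. The called bins were those from -434 to -533 and the 3 of the depleted stretch. The bin from -434 to -533 held 0.428, 0.322 and 0.475% in WT FRI and 0.109, 0.165 and 0.211% in vrn1-4 FRI, a log2 change of -1.31 (SE 0.375, limma adjusted p = 0.0182). The bin from -634 to -733 held 0.0343, 0.0188 and 0.0516% in WT FRI and 0.00682, 0.0137 and 0.0152% in vrn1-4 FRI, a log2 change of -0.99 (SE 0.353, limma adjusted p = 0.0412). Its lowest WT FRI library was the thinnest of the series and stood close to the vrn1-4 FRI values.

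The next 2 bins differed more. The bin from -734 to -833 held 0.0572, 0.0648 and 0.0467% in WT FRI warm and 0.00574, 0.00753 and 0.0103% in vrn1-4 FRI warm, a log2 change of -1.89 (SE 0.345, limma adjusted p = 0.00163). The bin from -834 to -933 held 0.12, 0.0878 and 0.102% in WT FRI warm and 0.00969, 0.00807 and 0.0231% in vrn1-4 FRI warm, a log2 change of -2.31 (SE 0.439, limma adjusted p = 0.00203). The other 4 promoter bins were not called. The bins from -234 to -333 and from -934 to -1033 had log2 changes of 0.29 and -0.21. Their groups did not overlap, and neither did those of the 4 called bins. A lack of overlap was thus not particular to the called bins, and it was not counted over all 96. Those at -334 to -433 and -534 to -633 had log2 changes of -0.17 and -0.06, and their groups overlapped. Without WT FRI warm replicate 3, 13 of the 96 bins were called and 2 in the promoter, and without vrn1-4 FRI warm replicate 1 these numbers were 16 and 2, the bins from -734 to -933 keeping their calls. The call from -634 to -733 was lost in 9 of the 14 fits that left out a library and with a pseudocount of 0.001 (limma adjusted p = 0.140). With each distinct fragment counted once, and likewise with short fragments alone (the lower part of the length range, split at its middle), 2 of the 4 calls remained, those from -734 to -933, and the 4 log2 changes ran from -1.98 to -0.54 and from -2.79 to -0.86.

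After cold the same 4 promoter bins were called as lower in vrn1-4 FRI, where 42.7% of all bins were called and 30.2% as lower. The median log2 change was -0.59 over the promoter bins and -0.10 over all bins. The log2 changes were -1.05 (SE 0.325, limma adjusted p = 0.0161) from -434 to -533, -1.09 (SE 0.306, adjusted p = 0.0104) from -634 to -733, -1.60 (SE 0.299, adjusted p = 0.00209) from -734 to -833 and -1.53 (SE 0.380, adjusted p = 0.00568) from -834 to -933. Only in the first of these did the genotypes not overlap, with 0.593, 0.607, 0.481 and 0.452% in WT FRI against 0.251, 0.317, 0.446 and 0.107% in vrn1-4 FRI. In the bin from -734 to -833, WT FRI held 0.0363, 0.105, 0.0899 and 0.0571% and vrn1-4 FRI 0.00977, 0.0138, 0.0378 and 0.00894%, so vrn1-4 FRI 1W cold replicate 3 reached the lowest WT FRI library while the other 3 lay well below. All 4 calls held whichever library was left out, but with each distinct fragment counted once only that from -734 to -833 remained, with log2 changes of the 4 bins from -1.55 to -0.57. The cold comparison and the warm comparison share no libraries, but limma estimated the spread of each bin from all 14.

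**Figure D3:**
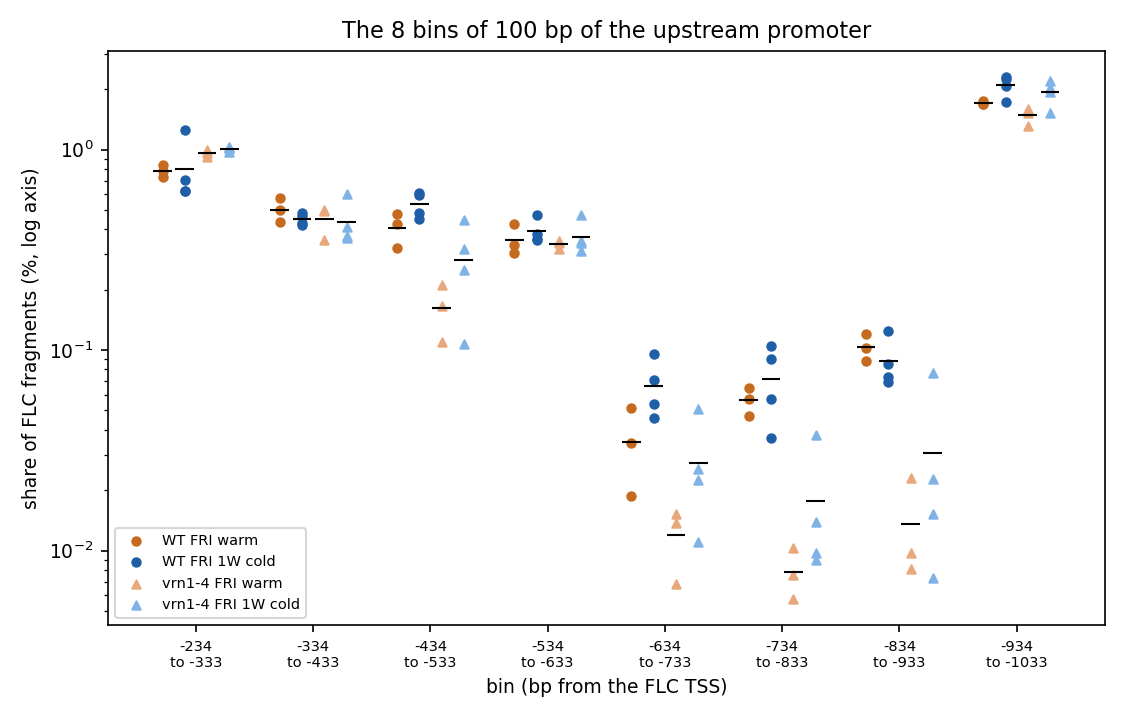
Share of FLC fragments, in % on a log y axis, in the 8 promoter bins of 100 bp, ordered by distance from the TSS in bp. Points are libraries and short lines group means, and the vrn1-4 FRI means lie below the WT FRI means in the bin from -434 to -533 and in the 3 bins from -634 to -933, while those from -334 to -433 and from -534 to -633 lie close together.

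The genotype differences went with GC content over the whole of FLC. Across the 96 bins the log2 change between genotypes correlated with the GC content of the bin and 50 bp to either side at r = 0.78 in warm and 0.76 after cold, and across the 88 bins outside the promoter at r = 0.76 and 0.71. These are descriptions, since the bins come from the same libraries and neighbouring bins share bases and fragments. Outside the promoter, the 28 bins of at most 30.5% GC had median log2 changes of -0.44 in warm and -0.40 after cold, with 15 and 14 of them called as lower, against -0.13 and -0.09 and 23 and 25 called as lower among all 88. Lower shares were thus common in A/T-rich bins along FLC, but not found in all of them. The promoter bin from -534 to -633, at 25% GC, had log2 changes of -0.06 in warm and -0.10 after cold. The bin starting at chr5:3180582, outside the promoter and at 27.5% GC, had 0.31 and 0.30. The depleted stretch held the most A/T-rich bins of all.

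Corrections for GC content were added after the data had been seen. They left 1, 2 and 2 of the 4 promoter calls in warm and 0, 1 and 1 of the 4 after cold. Each subtracted from every library a fit of its deviation on GC: a quadratic on the bin with flanks, a quadratic on the bin alone, or a line fitted only to the 88 bins outside the promoter. In warm, 16.7, 22.9 and 12.5% of all bins were then called, with 9, 11 and 6 as lower and 7, 11 and 6 as higher. The bin from -834 to -933 stayed lower in vrn1-4 FRI under each, at log2 changes of -1.07, -0.81 and -1.39 (limma adjusted p = 0.0121, 0.0190 and 0.0129). The bin from -734 to -833 had log2 changes of -0.20, -0.70 and -0.74 (limma adjusted p = 0.401, 0.0201 and 0.0369), so its call depended on the correction. The bin from -434 to -533 lost its call under each (log2 changes -0.58, -0.31 and -0.69), and the bin from -634 to -733 turned direction (0.43, 0.30 and 0.02, none called).

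After cold, 21.9, 22.9 and 19.8% of all bins were called under the 3 corrections, with 11, 12 and 11 as lower and 10, 10 and 8 as higher. The bin from -734 to -833 had log2 changes of -0.30, -0.67 and -0.57 (limma adjusted p = 0.111, 0.00768 and 0.0491) and was the only promoter bin called as lower under any of them. The bin from -834 to -933 had log2 changes of -0.55, -0.38 and -0.71 and was not called (limma adjusted p = 0.0702, 0.137 and 0.0743). The bin from -634 to -733 had log2 changes of 0.02, -0.09 and -0.18, and the bin from -434 to -533 had -0.45, -0.26 and -0.52, none called.

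The correction also raised 2 other bins. The bin from -534 to -633, which holds the maximum at -607 and has 25% GC, was called as higher in vrn1-4 FRI under each correction, at log2 changes of 0.83, 0.43 and 0.66 in warm (limma adjusted p = 0.000115, 0.0190 and 0.000920) and 0.63, 0.31 and 0.53 after cold (limma adjusted p = 0.000306, 0.0211 and 0.000930). The bin from -934 to -1033 was called as higher after cold under the first and last correction, at 0.32 and 0.29 (limma adjusted p = 0.0269 and 0.0400). With 50 bp to either side, the GC content of the depleted bins, 18.5 to 22.0%, lay below the 25% of the next lowest bin. The line fitted outside the promoter was thus extended there beyond the bins it rested on, and the quadratic fits included the promoter bins themselves. What part of the genotype difference in the depleted stretch goes with base composition of the libraries and what part with the genotype at this position cannot be told apart here.

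**Figure D4:**
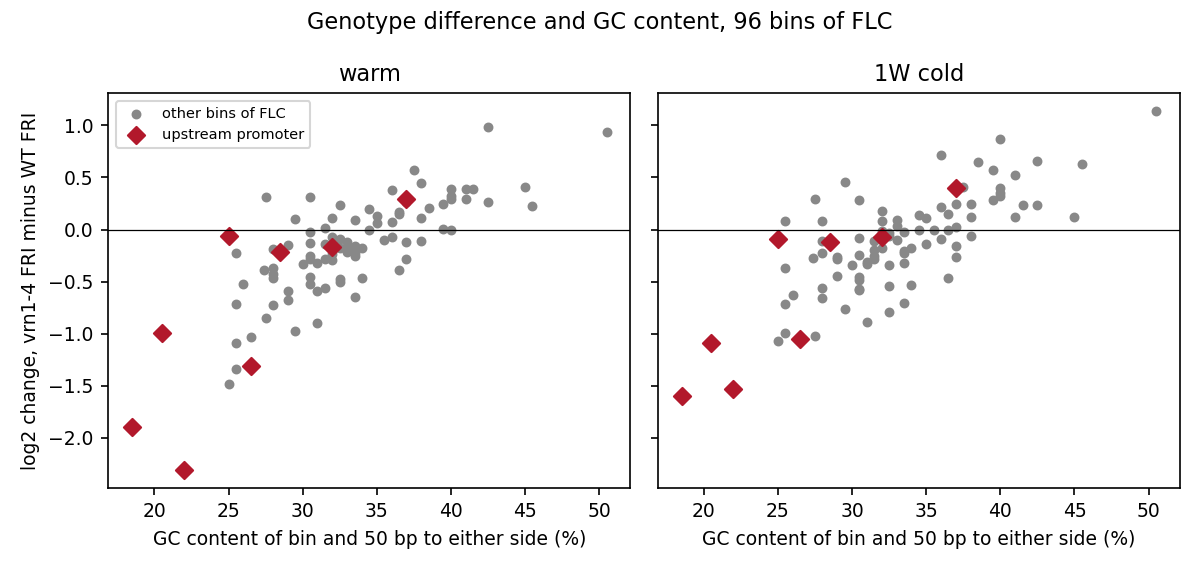
Log2 change between vrn1-4 FRI and WT FRI in each of 96 bins of FLC against the GC content (%) of the bin with 50 bp to either side, in warm and after 1 week of cold. Each point is a bin, the 8 promoter bins are marked, and the 3 bins at 18.5 to 22.0% GC lie lowest in GC with log2 changes of -0.99 to -2.31 in warm and -1.09 to -1.60 after cold.

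Between cold and warm no promoter bin was called. In WT FRI 2.08% of all 96 bins were called by limma, 28 had an unadjusted p under 0.05, and 0 of the 8 promoter bins were called. The promoter bins with the smallest p were those from -634 to -733 (log2 change 0.79, SE 0.330, limma adjusted p = 0.136), from -934 to -1033 (0.28, SE 0.133, adjusted p = 0.177) and from -434 to -533 (0.38, SE 0.351, adjusted p = 0.501). The first of these held 0.0343, 0.0188 and 0.0516% in warm and 0.0459, 0.0951, 0.0706 and 0.0539% after cold, so the groups overlapped in 1 library of each. It was called when the GC content of the bin alone was corrected for (log2 change 0.57, adjusted p = 0.0420), not under the other 2 corrections (0.57 and 0.34, adjusted p = 0.0709 and 0.168).

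In vrn1-4 FRI 0% of the bins were called by limma between cold and warm and 15 had an unadjusted p under 0.05. The promoter bins with the smallest p were those from -934 to -1033 (log2 change 0.37, SE 0.133, limma adjusted p = 0.265), from -634 to -733 (0.69, SE 0.330, adjusted p = 0.268) and from -434 to -533 (0.64, SE 0.351, adjusted p = 0.296). The outermost bin held 1.32, 1.60 and 1.53% in warm and 1.95, 2.20, 2.04 and 1.53% after cold, and the lowest cold library lay inside the warm range. That library, vrn1-4 FRI 1W cold replicate 4, decided the count: without it 9 of 96 bins were called, 2 of them promoter bins that were higher after cold. The median log2 change was 0.45 over the promoter bins and 0.11 over all bins. The log2 change also went with GC content between cold and warm, at r = -0.55 in WT FRI and -0.79 in vrn1-4 FRI over 96 bins.

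No promoter bin was called for a change with cold that differed between genotypes. Of all 96 bins 1.04% were called by limma, with 5 at an unadjusted p under 0.05, and 0 of the 8 in the promoter. The smallest p in the promoter was at -834 to -933 (log2 difference of changes 0.78, SE 0.580, adjusted p = 0.878), followed by -734 to -833 (0.29, SE 0.456, adjusted p = 0.976) and -434 to -533 (0.26, SE 0.497, adjusted p = 0.976).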

How the data were processed

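Libraries were those of 14 seedling samples, grouped by genotype and temperature from their labels. The authors trimmed reads with fastp, used Bowtie2 with TAIR10 for alignment and SAMtools 1.5 for splitting by target and rebuilt fragments of 100 to 150 bp from read pairs. The deposited value is the fraction of a library's FLC fragments that had a given start and end, so each library sums to 1 and its fragment number is not stated. Duplicate removal is not given in the sources used here, and PCR copies cannot be told from repeated cuts, hence the alternative that counts each distinct fragment once. MNase digestion, PCR and capture with 80-base baits all depend on base composition, and 2 size selections limit which lengths remain. By the methods, the libraries were pooled before capture and shared a single capture reaction.

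Midpoints were the mean of first and last base. Shares, mean lengths and peak ratios were compared with two-sided exact permutation tests at p under 0.05, with Benjamini-Hochberg values beside them, and promoter against neighbours with sign flips within libraries. Bins of 100 bp were fitted with limma 3.58.1 in R 4.3.3 on all 14 libraries in 4 groups, on log2(share + 0.0001), for bins with a mean share of at least 0.0001. Python 3.11.15 with numpy 2.4.6, pandas 2.3.3 and scipy 1.17.1 was used. Maxima were local maxima at least 100 bp apart in a 41-bp running mean. Named were all promoter bins called or the 3 of smallest p, all maxima, and the 5 most frequent fragments plus the first in each group. Alternatives were other pseudocounts, no filter, another grid, 50-bp bins, long (125 to 150 bp) or short (100 to 124 bp) fragments, a 21-bp running mean, moved borders, a replicate block, fits of single comparisons and leaving out each library. Scripts were tested on simulated data. The region, lists and tests were chosen with earlier results of these data known.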

Additional observations from a re-analysis of the deposited data

Results flagged for a closer look

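Of 50 groups of 4 libraries, 6 had a library far from the other 3 by Dixon's criterion, which chance gives in about 1 group of 20, and the measures overlap each other. WT FRI 1W cold replicate 1 had a ratio of maxima to minima of 2.72, against 1.91 to 2.01 in the other 3, and held 1.26% of FLC fragments in the bin from -234 to -333, against 0.619 to 0.705%. vrn1-4 FRI 1W cold replicate 3 held 0.0378% in the bin from -734 to -833, against 0.00894 to 0.0138%. vrn1-4 FRI 1W cold replicate 4 held 1.01% in the window at -269, against 0.848 to 0.856%, and 0.494% in the window at -370, against 0.329 to 0.349%. The same library held 0.0245% as fragment 3, against 0.0186 to 0.0188%. None of the 11 tests of a different change with cold between genotypes in the promoter passed the threshold.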

How the results depend on the processing

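The genotype differences in the depleted stretch kept their direction in warm and after cold whichever library was left out (-0.173 to -0.152 and -0.181 to -0.119 percentage points), although the p after cold was over the threshold in 5 of the 8 left-out comparisons (exact permutation p = 0.0571 in each), and with every distinct fragment given equal weight it was -0.424 after cold (exact permutation p = 0.0571). The WT FRI cold-minus-warm difference of the stretch ran from -0.000252 to 0.0521 over the left-out libraries. Its GC content and few fragments limit what these libraries can show there. The GC corrections turned the bin from -634 to -733 in warm (0.433, 0.298 and 0.0239, and 0.433 with the replicate block) and, for the quadratic with flanks, after cold (0.0188, with and without the block).

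Counting each fragment once turned the difference between the changes of the promoter share (-0.126) and 3 of the ratios of maxima to minima (-0.340 for cold in WT FRI, -2.58 for cold in vrn1-4 FRI, -2.24 between changes), and took the length difference from the rest of FLC to -0.193 bp. Long fragments gave ratio differences of -0.307 for cold in WT FRI and -0.0784 for genotype in warm. Short fragments gave -0.138, -0.214 and -0.0767 for cold in WT FRI, cold in vrn1-4 FRI and between changes, and a promoter share 0.498 percentage points higher after cold in vrn1-4 FRI (exact permutation p = 0.0286). A 21-bp running mean gave -0.114 between changes. The cause of these shifts was not tested. Over left-out libraries the ratio differences ran from -0.184 to 0.0874 for cold in WT FRI, -0.0139 to 0.360 for cold in vrn1-4 FRI and -0.0224 to 0.351 between changes, and 0 to 2 windows at maxima passed. The WT FRI length difference ran from 3.32 to 5.85 bp, where leaving out any library of the comparison raises the smallest possible p above the threshold.

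Called bins for cold in WT FRI, 2 of 96 in the text, numbered 4 on the moved grid, 9 in 50-bp bins, 0 with fragments counted once, 4 and 1 with long and short fragments, 1 in the fit of those groups alone, 7 and 1 with GC of the bin alone and with the line, and 1 to 14 over left-out libraries (14 without vrn1-4 FRI 1W cold replicate 4). For cold in vrn1-4 FRI they numbered 0 to 9. For genotype in warm, 35 in the text, they numbered 63 of 189 in 50-bp bins, 11 with fragments counted once, 16 with short fragments, 16, 22 and 12 with the GC corrections, and 13 to 42 over left-out libraries. For genotype after cold, 41 in the text, they numbered 76 of 189, 9 with fragments counted once, 21, 22 and 19 with the GC corrections, and 37 to 46. For the difference between changes, 1 in the text, they numbered 0 on the moved grid, with fragments counted once, with long fragments and with the block, and 0 to 1 over left-out libraries.

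Same-numbered libraries did not deviate together in every pair (correlations of -0.596 to 0.606), so the numbers were not taken as pairs. A replicate block gave length differences of 4.70 bp for cold in WT FRI (sign-flip permutation p = 0.25) and -5.09 bp for genotype after cold (permutation p = 0.125), both the smallest p these pairs allow. With the block, 17 bins were called for cold in WT FRI, 1 of them in the promoter (-634 to -733, limma adjusted p = 0.0441), with no other promoter call changed, 36 and 43 for genotype in warm and after cold, and with block and GC correction 9 and 18.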
